A study of Rattus norvegicus with 15 samples.

Results

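The 7 genes *Sucnr1*, *Eqtn*, *Slc27a1*, *Ephx2*, *Lhpp*, *Prps1* and *Rhoc* were chosen, of 14506 genes measured under 1 symbol, because earlier results of these data had shown them lower in the Wistar Audiogenic Rat (WAR) than in the Wistar rat with or without sound. Each was read by 1 probe set, found by its gene symbol in the platform annotation. RNA of the inferior colliculus (IC), the midbrain auditory nucleus in which audiogenic seizures start, was read on rat gene arrays from Affymetrix. Of 15 arrays, 5 came from WAR rats exposed to auditory stimulation (WAR S), 2 from Wistar rats exposed to the same stimulation (Wistar S), 4 from WAR rats without exposure (naïve, WAR N) and 4 from Wistar rats without exposure (Wistar N). All rats were males of 12 weeks, and the IC of both sides was collected, in stimulated animals 60 min after the stimulus. The study describes its stimulated WAR rats as having had seizures and its stimulated Wistar rats as having had none. Differences after sound, which both strains received, therefore cannot tell strain, its response to sound and seizure apart. WAR is a strain selected for seizures evoked by loud sound, and its rats came from the School of Medicine of Ribeirão Preto, whereas the Wistar albino rats came from Charles River, so strain and breeding colony cannot be told apart. The general text of the deposit describes every animal as stimulated, and the methods of the study give other numbers of stimulated rats than the labels do, so the groups rest on the label of each array.

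Values are log2 expression values made by the authors with robust multi-array average (RMA), on which a difference of 1 is a change by a factor of 2. Any pair of stimulated arrays shared the exact value at 2675 to 3286 probe sets, against 2 to 13 in pairs of naïve arrays and 0 in mixed pairs, so the stimulated arrays were taken to be normalized apart and strains were compared only within each part. WAR minus Wistar had a median over all 14506 genes of 0.010 in the stimulated and of 0.023 in the naïve arrays. The array Wistar N 1 stood apart: with it, 3037 genes passed the adjusted threshold of limma in the naïve comparison, and without it 5968 did. Markers of IC neurons averaged between 9.66 and 10.49 in every array, and markers of neighbouring brain tissue between 6.23 and 6.79 with 0 of 7 genes past the threshold in either comparison.

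The 7 genes belong to different steps of metabolism and signaling. *Sucnr1* encodes the G protein-coupled receptor for succinate, an intermediate of the citric acid cycle that cells release when oxygen or energy supply is disturbed. *Slc27a1* encodes a fatty acid transport protein that also activates long-chain fatty acids, and *Ephx2* the soluble epoxide hydrolase, which degrades the epoxy fatty acids made by cytochrome P450 enzymes, lipid mediators of vessel tone and inflammation. *Prps1*, on the X chromosome, encodes the enzyme that makes phosphoribosyl pyrophosphate (PRPP), the precursor of purine and pyrimidine nucleotides, and loss of its activity is a known cause of inherited hearing loss in humans. *Lhpp* encodes a phosphatase of phosphohistidine and pyrophosphate, *Rhoc* a small GTPase that controls the actin cytoskeleton, and *Eqtn* equatorin, a membrane protein of the sperm acrosome.

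The stretches of DNA before the start sites of *Sucnr1* and *Prps1* are shown because these genes had the largest strain differences of the 7, *Sucnr1* among stimulated and *Prps1* among naïve arrays. Both are the 250 bases upstream of the start from RefSeq (build GRCr8), written 5′ to 3′ on the plus strand, at chr2:146368608-146368857 for *Sucnr1* and chrX:108920413-108920662 for *Prps1*. Capitals mark matches, on either strand, to 4 motifs. The TATA box was searched as TATAAA and the AP-1 site as TGACTCA. The GC box was searched as GGGCGG, and the CCAAT box by the letters of its name.
Sucnr1: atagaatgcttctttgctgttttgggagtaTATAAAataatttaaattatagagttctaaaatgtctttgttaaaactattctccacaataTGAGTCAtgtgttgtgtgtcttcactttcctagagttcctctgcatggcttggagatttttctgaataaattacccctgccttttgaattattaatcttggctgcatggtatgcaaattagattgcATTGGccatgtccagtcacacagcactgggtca
Prps1: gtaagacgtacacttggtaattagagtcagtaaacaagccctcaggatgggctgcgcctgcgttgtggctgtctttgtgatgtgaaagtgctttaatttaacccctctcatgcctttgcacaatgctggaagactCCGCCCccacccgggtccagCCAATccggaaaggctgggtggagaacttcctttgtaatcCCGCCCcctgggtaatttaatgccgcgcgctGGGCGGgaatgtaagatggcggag
The window of *Sucnr1* held 1 TATA box, 1 AP-1 site and 1 CCAAT box, and that of *Prps1* 1 CCAAT box and 3 GC boxes. The pair also differed in base composition, with a GC content of 35.6% for *Sucnr1* and 54.0% for *Prps1*, beside a median of 51.2% over 33469 rat promoters of the same length. A match is a run of letters and does not show that a factor binds there.

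*Sucnr1* (probe set 10815630) had the largest difference among the stimulated arrays. Its log2 values were 5.38, 5.56, 5.62, 5.60 and 5.54 in the 5 WAR S arrays and 7.37 and 7.27 in the 2 Wistar S arrays. The groups lay far apart, with the highest WAR S array 1.65 below the lowest Wistar S array. The means were 5.54 ± 0.097 (SD, n = 5) and 7.32 ± 0.074 (SD, n = 2), a difference of −1.78 with a standard error of 0.17 from limma, so the level in WAR S was 29.1% of that in Wistar S. Among naïve arrays, the values were 5.58, 5.53, 6.03 and 5.84 in WAR N and 7.18, 6.67, 6.43 and 6.57 in Wistar N. No array overlapped there either, and the gap was smaller, at 0.40. The naïve means were 5.74 ± 0.23 (SD, n = 4) and 6.71 ± 0.33 (SD, n = 4), and WAR N had 51.1% of the Wistar N level, a difference of −0.97 (SE 0.14) that was −0.81 without Wistar N 1. In WAR arrays, *Sucnr1*, *Eqtn* and *Ephx2* read from 5.38 to 6.03, below the array medians of 7.01 to 7.27 over all probe sets. How near these values lie to background was not tested, so their percentages describe array signal.

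*Eqtn* (probe set 10878068), the acrosomal gene, showed a like order of its arrays. In the stimulated part it read 6.00, 5.74, 5.77, 5.45 and 6.00 in WAR S against 7.37 and 6.91 in Wistar S. All WAR S arrays lay below both Wistar S arrays, by at least 0.91, and the means of 5.79 ± 0.23 (SD, n = 5) and 7.14 ± 0.32 (SD, n = 2) differed by −1.35 (SE 0.19), or 39.2% of the Wistar S level. The spread between the 2 Wistar S arrays moved this value, to −1.12 without Wistar S 1 and to −1.58 without Wistar S 2. In naïve rats it read 5.77, 5.68, 5.69 and 5.64 in WAR N and 6.75, 5.94, 6.45 and 6.44 in Wistar N. The 4 WAR N arrays were nearly alike, and Wistar N 2 came closest to them, 0.17 above the highest. The naïve difference was −0.69 (SE 0.16), with means of 5.70 ± 0.053 (SD, n = 4) and 6.39 ± 0.34 (SD, n = 4).

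*Slc27a1* (probe set 10787313), the fatty acid transporter, had the smallest difference of the 7 genes in the stimulated part. Its values were 9.32, 9.22, 9.68, 9.57 and 9.50 in WAR S and 10.17 and 10.49 in Wistar S, which left a gap of 0.50. The means of 9.46 ± 0.18 (SD, n = 5) and 10.33 ± 0.22 (SD, n = 2) differed by −0.88 (SE 0.15), and WAR S had 54.5% of the Wistar S level. Naïve arrays read 9.27, 8.91, 9.18 and 9.48 in WAR N and 9.76, 9.96, 9.93 and 10.02 in Wistar N. All 4 WAR N arrays were again the lower ones, by at least 0.28, with means of 9.21 ± 0.24 (SD, n = 4) and 9.92 ± 0.11 (SD, n = 4). That difference of −0.71 (SE 0.13) was close to the stimulated one.

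*Ephx2* (probe set 10784621), the epoxide hydrolase, separated the strains widely with and without sound. It read 5.69, 5.85, 5.64, 5.65 and 5.75 in WAR S and 6.93 and 6.76 in Wistar S. The naïve values were 5.55, 5.71, 5.76 and 5.71 in WAR N and 6.92, 7.05, 6.82 and 7.40 in Wistar N. WAR arrays kept to a narrow band in both parts, with gaps to the Wistar arrays of 0.91 in the stimulated and 1.06 in the naïve part. The stimulated means of 5.72 ± 0.088 (SD, n = 5) and 6.85 ± 0.12 (SD, n = 2) differed by −1.13 (SE 0.13). The naïve means of 5.68 ± 0.090 (SD, n = 4) and 7.05 ± 0.25 (SD, n = 4) differed by −1.36 (SE 0.11), or 38.8% of the Wistar N level.

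*Prps1* (probe set 10935204), the PRPP synthetase gene, had the largest naïve difference of the 7 genes. Its naïve values were 8.93, 8.93, 8.52 and 8.80 in WAR N and 10.60, 10.08, 10.33 and 10.28 in Wistar N. The gap of 1.15 between the groups exceeded the whole range of either. The means of 8.80 ± 0.19 (SD, n = 4) in WAR N and 10.32 ± 0.21 (SD, n = 4) in Wistar N differed by −1.53 (SE 0.11), so that WAR N had 34.7% of the Wistar N level. After sound, the 5 WAR S arrays were tightly grouped at 9.18, 9.20, 9.20, 9.27 and 9.27, below 10.22 and 10.35 in Wistar S. The stimulated means of 9.22 ± 0.041 (SD, n = 5) and 10.28 ± 0.089 (SD, n = 2) differed by −1.06 (SE 0.13), at 48.0% of the Wistar S level.

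*Lhpp* (probe set 10711715), the phosphohistidine phosphatase gene, separated the strains in the stimulated part alone. There it read 9.22, 9.35, 9.27, 9.15 and 8.94 in WAR S and 10.20 and 10.19 in Wistar S, with a gap of 0.84. The means of 9.19 ± 0.16 (SD, n = 5) and 10.20 ± 0.0047 (SD, n = 2) differed by −1.01 (SE 0.16), or 49.7% of the Wistar S level. Naïve arrays read 8.82, 8.93, 9.11 and 8.66 in WAR N and 9.55, 9.00, 9.02 and 8.99 in Wistar N. WAR N 3 lay above 3 of the 4 Wistar N arrays, and Wistar N 1 stood apart from the other 3. The naïve difference was −0.26 (SE 0.13), and −0.12 without Wistar N 1.

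*Rhoc* (probe set 10818108), the small GTPase gene, also separated the strains in the stimulated part alone. Stimulated arrays read 8.48, 8.42, 8.40, 8.37 and 8.51 in WAR S against 9.41 and 9.70 in Wistar S, a gap of 0.90. The means of 8.44 ± 0.057 (SD, n = 5) and 9.55 ± 0.21 (SD, n = 2) differed by −1.12 (SE 0.13), and WAR S had 46.0% of the Wistar S level. Naïve arrays read 8.37, 8.01, 7.98 and 7.91 in WAR N and 8.60, 8.29, 8.20 and 8.22 in Wistar N. WAR N 1 lay above 3 Wistar N arrays, while the other 3 WAR N arrays lay below all of them. The difference was −0.26 (SE 0.11) with all naïve arrays and −0.17 without Wistar N 1.

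**Figure D1:**
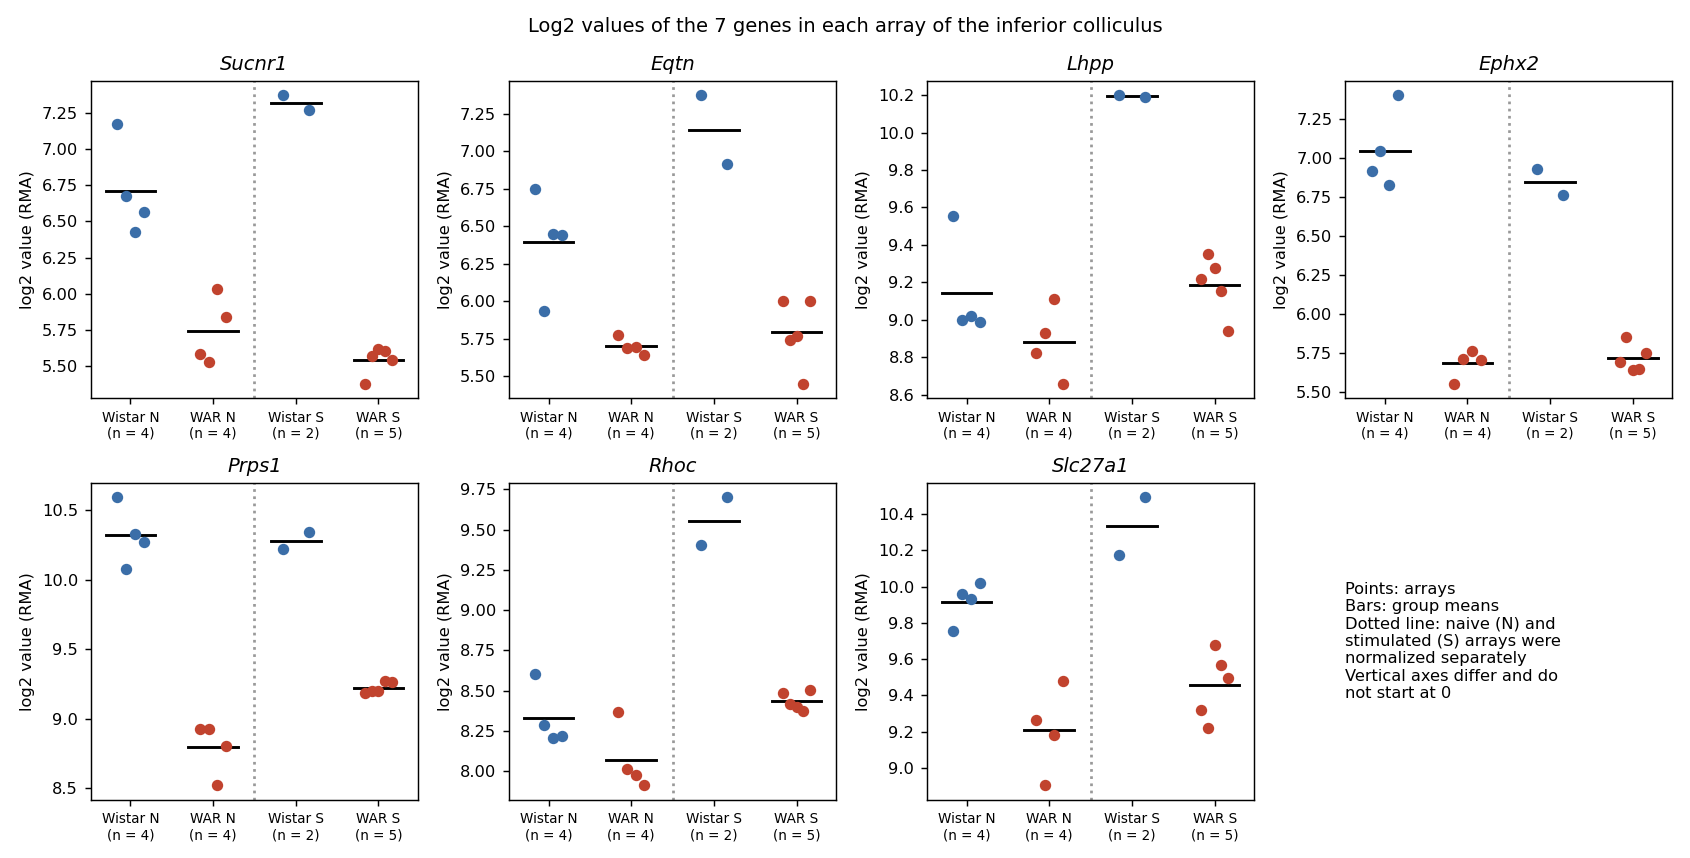
Log2 RMA values (vertical axis, a different range for each gene) of the 7 genes in each array (points), by group, with group means as bars and a dotted line between the separately normalized naïve and stimulated parts. In the stimulated part the WAR points lie below both Wistar points for all 7 genes, and in the naïve part *Lhpp* and *Rhoc* overlap.

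Among stimulated arrays, every WAR array lay below every Wistar array for 7 of 7 genes, where 8.22% of all genes met the same condition. In the naïve part 5 of 7 did so, where 5.51% of all genes did, and 5 did so in both parts, where 1.37% (199 genes) did. The genes were chosen on these comparisons, so the counts describe the choice and are no test of it. *Lhpp* and *Rhoc* were the 2 genes that overlapped in naïve rats, and for them a lower level whatever the stimulation was not seen as a separation of the arrays. Leaving out an array cannot make separated groups overlap, so it could change the result only for these 2 genes. *Rhoc* no longer overlapped without WAR N 1, and *Lhpp* no longer overlapped without WAR N 3. By limma, 7 of the 7 were lower after sound (0.2% of all genes), 5 in naïve rats (9.38%) and the same 5 in both parts (0.117%, 17 genes), which again describes how they were chosen.

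The estimated strain difference was of another size in each part, which is given as values without a test. *Rhoc*, *Sucnr1*, *Lhpp* and *Eqtn* had the larger difference after sound, by −0.86 (SE 0.17), −0.81 (SE 0.22), −0.75 (SE 0.20) and −0.66 (SE 0.25), taken as the stimulated minus the naïve difference. *Prps1* went the other way, by 0.47 (SE 0.16). For *Ephx2* and *Slc27a1* these values were 0.24 (SE 0.17) and −0.17 (SE 0.20). The comparison with 2 Wistar S arrays sets most of these errors, and levels of stimulated and naïve rats were not compared directly because of the separate normalization.

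**Figure D2:**
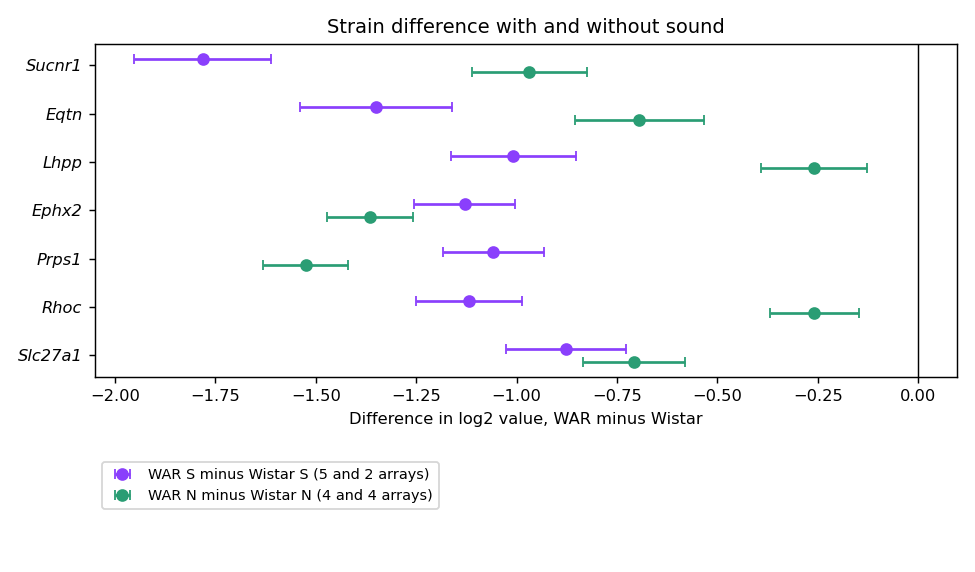
Difference in log2 value, WAR minus Wistar (horizontal axis), of the 7 genes in stimulated (5 and 2 arrays) and naïve (4 and 4 arrays) rats, with standard errors from limma as bars. All 14 points lie below 0, from −1.78 for *Sucnr1* in stimulated rats to −0.26 for *Lhpp* and *Rhoc* in naïve rats.

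The 7 differences had the same sign when naïve arrays were split by the 2 forms of running number in their descriptions, which no source names as a batch (2 WAR and 2 Wistar arrays in each). The genes were chosen as lower in WAR in these arrays, so the shared sign is no test. In the first set the naïve differences of *Sucnr1*, *Eqtn*, *Lhpp* and *Ephx2* were −1.32, −0.87, −0.39 and −1.53, and in the second −0.62, −0.52, −0.13 and −1.20. For *Prps1*, *Rhoc* and *Slc27a1* they were −1.51, −0.22 and −0.80, then −1.54, −0.30 and −0.61. *Sucnr1* thus varied most between the sets, and *Prps1* hardly at all. Both Wistar S arrays belong to the first set, where the stimulated differences ran from −1.83 for *Sucnr1* to −0.99 for *Slc27a1*.

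Apart from the strain difference, the 7 genes did not vary as 1 block. Pearson's r between their deviations from the 4 group means, over 15 arrays, ran from −0.51 for *Lhpp* with *Slc27a1* to 0.63 for *Sucnr1* with *Lhpp*, with a median of 0.02 over 21 pairs, of which 12 were above 0. *Prps1* and *Rhoc* followed each other with an r of 0.60, and *Ephx2* and *Rhoc* ran opposite with −0.43. These values are a description, without a test, and the arrays of a part share their normalization.

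**Figure D3:**
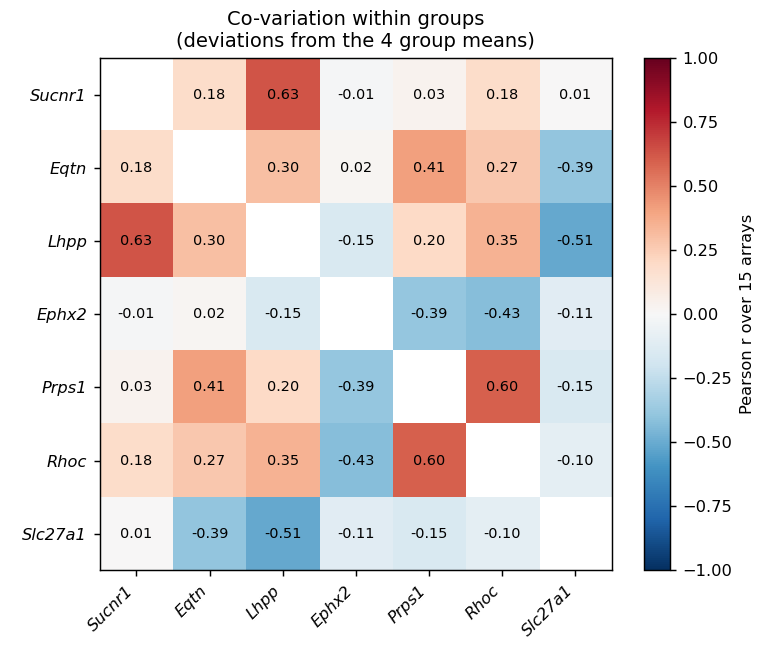
Pearson's r, over 15 arrays, between the deviations of the 7 genes from their group means (color, with the value in each cell). The values spread on both sides of 0, from −0.51 to 0.63.

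With the strain difference left in, and the mean of each part removed, the pattern of each gene over the 15 arrays was closest to that of other genes that differed between the strains. *Sucnr1* was most like *Ccl9* (r = 0.93) and *Vom2r53* (r = 0.91), and *Eqtn* most like *Sucnr1* and *Htr3a* (both r = 0.90). The enzyme genes *Ephx2* and *Prps1* were most like *Acot2* and *Ryr1*, and *Ptpa* and *Pyroxd2*, respectively (all r = 0.95). *Lhpp* was most like *Dennd2b* (r = 0.94) and *Psd2* (r = 0.92), and *Rhoc* most like *Slc47a1* and *Vom2r53* (both r = 0.91). *Slc27a1* was most like the hyaluronidase gene *Hyal1* (r = 0.95) and *Acsbg1* (r = 0.94), which encodes an acyl-CoA synthetase. All points share the strain difference, which by itself makes such values high, and no test is given.

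The 7 genes lie on 6 chromosomes, with *Sucnr1* and *Rhoc* on chromosome 2, *Lhpp* on 1, *Eqtn* on 5, *Ephx2* on 15, *Slc27a1* on 16 and *Prps1* on X. For each gene, the 5 nearest measured genes on either side were examined, 70 in all, since they were not used in the choice. In the stimulated arrays, 2 of the 70 passed the adjusted threshold of limma, both higher in WAR (2.86%, against 0.414% of all genes), and 0 were lower. These were *P2ry12*, which encodes an ADP receptor found on microglia, 4 places from *Sucnr1* (0.89, SE 0.090, adjusted p = 0.00049), and *Tek*, the angiopoietin receptor of endothelium, next to *Eqtn* (1.09, SE 0.19, adjusted p = 0.021). The call of *Tek* was lost without Wistar S 1 or Wistar S 2, with an adjusted p up to 0.491.

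In the naïve arrays, 9 of these neighbors were higher and 9 lower in WAR (25.7%, against 20.9% of all genes). Without Wistar N 1 this count of 18 became 30, and without Wistar N 3 it became 11. The count over all genes moved in the same way, from 3037 to 5968 and to 1987. These shifts are therefore not particular to the neighbors. Around *Sucnr1* lie several receptors of its family, and they differed in direction, with *P2ry12* (1.26) and *P2ry13* (0.91) higher and the adjacent *P2ry1* (−0.75, limma adjusted p = 0.010) lower. The orphan receptor gene *Gpr149* was also higher (0.61) and the GTPase gene *Rap2b* lower (−0.41). Next to *Eqtn*, *Tek* was higher (0.79) and the transcription factor gene *Jun* lower (−0.61), and *Plaa* was lower at 4 places (−0.65).

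Near *Ephx2*, 3 neighbors on 1 side were lower in naïve WAR: *Ptk2b* (−1.19, SE 0.13, limma adjusted p = 0.00026), which encodes a calcium-activated tyrosine kinase, *Trim35* (−0.37) and *Stmn4* (−0.38). The adjacent genes of *Ephx2*, *Adam2* (−0.026) and *Chrna2* (0.22), did not pass the test. Around *Prps1*, *Morc4* (0.40) and *Nup62cl* (0.30) were higher, while the adjacent *Dnaaf6* (0.39) and *Tsc22d3* (0.069) did not pass. Near *Rhoc*, *Capza1* (0.48) and *St7l* (0.53) were higher and *Magi3* (−0.24) lower, with no call for the adjacent *Ppm1j* (0.13) and *Mov10* (0.031). *Ctbp2* (0.44) near *Lhpp* and *Gtpbp3* (−0.33) near *Slc27a1* were the only calls there. Of the 18 naïve calls, 11 were kept whichever 1 array was left out, and those of *Rap2b*, *Plaa*, *Trim35*, *Stmn4*, *Magi3*, *Capza1* and *Gtpbp3* were each lost without at least 5 of the 15 arrays, among them Wistar N 3 and Wistar N 4 in every case, with an adjusted p up to 0.116.

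Most genes right beside the 7 did not pass the test. Of 14 adjacent genes, 1 (*Tek*, higher) passed in the stimulated part, and 3 passed in the naïve part (*Tek* higher, *P2ry1* and *Jun* lower). In the stimulated arrays the 10 neighbors of *Slc27a1* differed by only −0.068 to 0.063, while *Slc27a1* itself differed by −0.88. The adjacent genes of *Lhpp*, *Oat* (0.11) and *Fam53b* (−0.25), and those of *Sucnr1*, *Aadac* (0.022) and *P2ry1* (−0.23), did not pass after sound. The adjacent *Nxnl1* and *Pgls* of *Slc27a1* had naïve values of −0.17 and 0.042, which did not pass either. Each of the 7 genes was read by 1 probe set whose single probes were not analysed here, so less RNA and a sequence difference of WAR under the probes cannot be told apart.

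**Figure D4:**
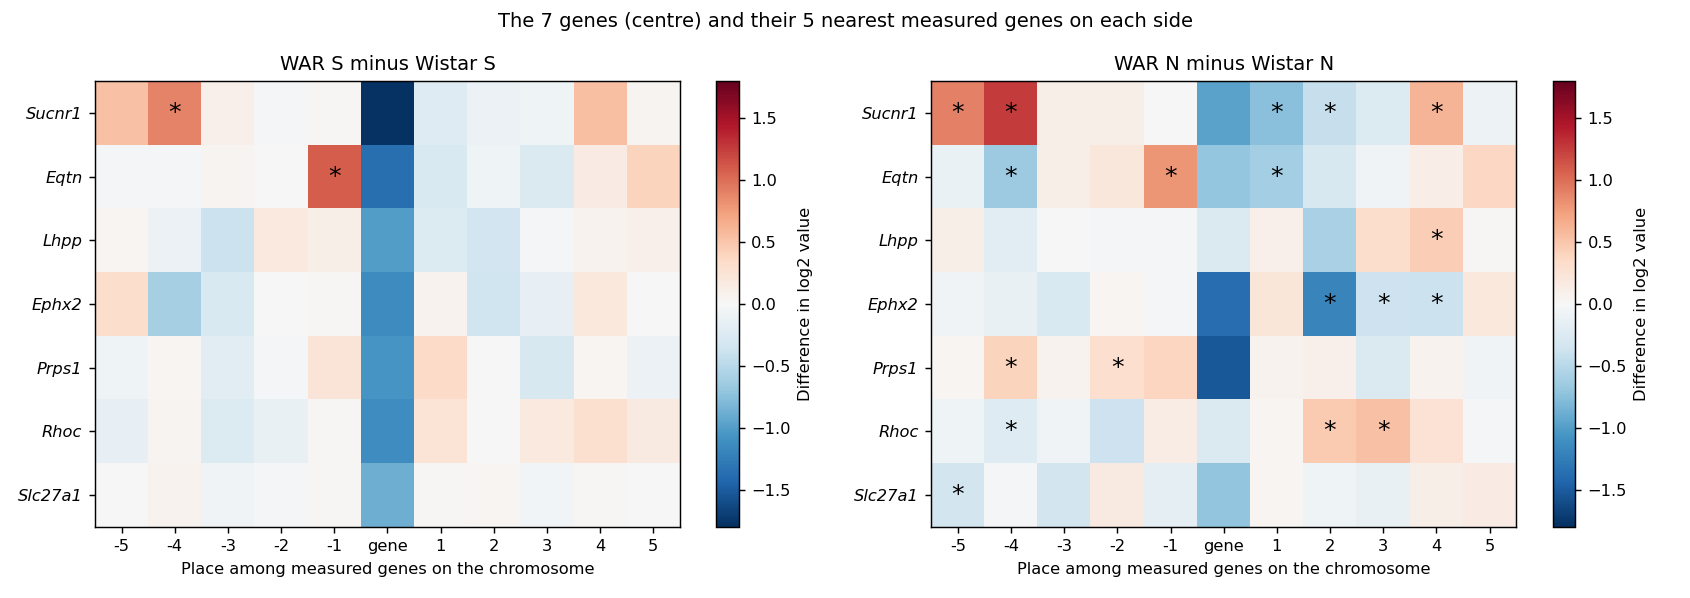
Difference in log2 value (color), WAR minus Wistar, of the 7 genes (center column) and of their 5 nearest measured genes on each side, ordered by place on the chromosome, in stimulated (left) and naïve (right) rats. Stars mark the 2 and 18 neighbors with a limma adjusted p under 0.05; no test is shown for the 7 genes.

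Upstream sequences were at hand for 6 of the 7 genes. Their GC content over 250 bases ran from 29.2% for *Eqtn* and 35.6% for *Sucnr1* through 54.0% for *Prps1*, 56.4% for *Lhpp* and 65.6% for *Slc27a1* to 77.2% for *Rhoc*. The TATA box shown above for *Sucnr1* was also found for *Eqtn*, where 12.9% of all promoters held it. A CCAAT box was present for *Sucnr1*, *Prps1* and *Slc27a1* (34.0% of all), and a GC box for *Prps1* and *Rhoc* (30.5%). The E-box CACGTG occurred for *Lhpp* (5.59% of all), the AP-1 site for *Sucnr1* (4.05%), and the nuclear receptor site AGGTCA for *Rhoc* and *Slc27a1* (14.1%). No motif searched, on either strand, was held by more than 3 of the 6.

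The pathways around the 7 genes were described with 8 lists holding 149 measured genes. In the stimulated arrays 1 gene was higher (*P2ry12*) and 1 lower in WAR by limma (1.34%, against 0.414% of all genes). The lower one was *Acadl*, the long-chain acyl-CoA dehydrogenase of fatty acid oxidation (−0.80, SE 0.16, adjusted p = 0.037), whose call was lost without any 1 of 7 arrays, namely Wistar S 1 or 2, WAR S 3 or 5, Wistar N 3 and WAR N 3 or 4, with an adjusted p up to 0.572. In the naïve arrays 13 were higher and 28 lower (27.5%, against 20.9% of all genes), with a median of −0.055 beside 0.023 over all genes. Of all genes, 11.6% were higher and 9.38% lower in naïve WAR. With the 2 compared groups alone in the model, 9 of the 149 and 879 of all 14506 genes were called in naïve rats. The share of the pathway genes was then no higher than that of all genes. Shares of single lists under that model are not given here. The naïve count of 41 became 78 without Wistar N 1 and 26 without Wistar N 3. The count over all genes moved in the same way, from 3037 to 5968 and to 1987. Of the 41 calls, 22 were kept whichever array was left out. For 0 of the 149 did the strain difference change between the parts by the adjusted interaction test.

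Around *Sucnr1*, 5 of 12 genes of succinate and the citric acid cycle were lower in naïve WAR and 0 higher, with a list median of −0.33. The share called lower was 41.7%, against 9.38% of all genes. *Ogdh*, of the oxoglutarate dehydrogenase that precedes succinate, differed by −0.97 (SE 0.15, limma adjusted p = 0.0011), *Sdha*, of the succinate dehydrogenase that consumes it, by −0.68 (SE 0.13, adjusted p = 0.0041), and *Aldh5a1*, which makes succinate from the GABA shunt, by −0.45. The call of the citrate carrier gene *Slc13a5* (−0.34) was lost without Wistar N 3 or without WAR N 1, 2 or 3, with an adjusted p up to 0.097. In stimulated rats 0 of these 12 passed, the median was −0.07, and *Ogdh* and *Sdha* had values of −0.099 and −0.050 while *Sucnr1* itself was at −1.78. Of 7 receptors most like *Sucnr1*, 3 were higher in naïve WAR (*P2ry12*, *P2ry13* and *Gpr34*) and *P2ry1* was lower (57.1% called, against 20.9% of all genes). *Gpr34* (0.62) lost its call without Wistar N 2 or 3 or WAR N 2, with an adjusted p up to 0.082.

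Around *Eqtn*, 2 of 16 other genes of the acrosome and of sperm-egg contact were higher in naïve WAR (*Acrbp*, 0.28, and *Sun5*, 0.24) and 0 lower, and 0 passed after sound. The naïve share called higher was 12.5%, near the 11.6% of all genes. *Acrbp* lost its call without WAR N 1 (adjusted p = 0.051), and *Sun5* without Wistar N 2, 3 or 4 or WAR N 2 or 3 (up to 0.082). The list median was 0.02 in the stimulated and 0.03 in the naïve part, beside −1.35 and −0.69 for *Eqtn*.

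Around *Lhpp*, 5 of 10 genes of phosphohistidine and pyrophosphate turnover were higher in naïve WAR and 0 lower, with a median of 0.17. The phosphohistidine phosphatase gene *Phpt1* differed by 1.33 (SE 0.28, limma adjusted p = 0.0056), and *Hddc2*, of a nucleotide phosphatase, by 1.01 (SE 0.12, adjusted p = 0.00029). The inorganic pyrophosphatase genes *Ppa2* and *Ppa1* differed by 0.60 and 0.37. These 4 calls were kept whichever array was left out, and 0 of 10 passed in the stimulated arrays, where *Phpt1* was at 0.47 (SE 0.34). The naïve groups overlapped for *Phpt1*, as Wistar N 1 (11.16) lay above WAR N 3 (11.04). *Nme3* was also higher (0.31), a call lost without Wistar N 2, 3 or 4 or WAR N 1, 3 or 4 (limma adjusted p up to 0.106).

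Around *Ephx2*, 0 of 22 genes of epoxide hydrolysis and epoxy fatty acid synthesis passed after sound, and 1 was higher and 2 lower in naïve WAR (13.6% called, against 20.9% of all genes). *Cyp2d4*, a brain cytochrome P450, was lower (−0.69, SE 0.10, limma adjusted p = 0.0011), and had −0.47 in stimulated rats without passing. The epoxygenase gene *Cyp2j3* was higher (0.40) and lost its call without Wistar N 3 or 4 or WAR N 1, with an adjusted p up to 0.058. *Ephx4* was lower (−0.31) and lost it without any 1 of 12 arrays, that is all but Wistar N 1, Wistar N 3 and WAR S 4, with an adjusted p up to 0.133. *Ephx1*, the microsomal epoxide hydrolase, did not pass in either part (0.12 and 0.14). The list median was 0.0074 after sound and 0.034 in naïve rats, beside −1.13 and −1.36 for *Ephx2*.

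Around *Prps1*, 0 of 23 genes of PRPP and nucleotide synthesis passed after sound, while 5 were lower and 0 higher in naïve WAR, with a median of −0.22. The naïve share called lower was 21.7%, against 9.38% of all genes. The other PRPP synthetase gene, *Prps2*, did not pass in either part (−0.07 and 0.21), and neither did *Prpsap1* (−0.057 and −0.17) or *Prpsap2* (−0.20 and −0.31), which encode proteins bound to the synthetase. *Prps1l1*, a close relative of *Prps1*, was at 0.0024 after sound and was lower in naïve rats (−0.28), a call lost without Wistar N 2 or 3 or WAR N 2, 3 or 4 (adjusted p up to 0.108). The pyrimidine enzyme gene *Umps* (−0.50) and the pentose phosphate enzyme gene *Tkt* (−0.42, limma adjusted p = 0.0073) were lower in naïve WAR whichever array was left out. The purine enzyme genes *Gart* (−0.61) and *Adss2* (−0.45) were lower too, the first without its call when Wistar N 3, Wistar N 4 or WAR N 4 was left out (adjusted p up to 0.068), and the second when any 1 array other than Wistar N 1 and WAR N 2 was (up to 0.153).

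Of the nearest relatives of *Rhoc*, *Rhoa* did not pass in either part (−0.19 after sound and 0.19 in naïve rats). *Rhob* was lower in naïve WAR (−0.94, SE 0.14, limma adjusted p = 0.0011), kept its call whichever array was left out, and was at −0.17 after sound, the part in which *Rhoc* was at −1.12.

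Around *Slc27a1*, 2 of 28 genes of fatty acid uptake, activation and oxidation were higher and 8 lower in naïve WAR (35.7% called, against 20.9% of all genes). The 2 higher ones were *Cpt1b* (0.55) and *Fabp5* (0.46), whose calls were kept whichever array was left out. *Acadl* was the only call after sound. It was also lower in naïve WAR (−0.40, limma adjusted p = 0.043), a call lost without any 1 of 10 arrays (up to 0.122). *Fabp7*, the fatty acid binding protein of astrocytes, had the largest naïve difference (−1.19, SE 0.34, limma adjusted p = 0.025), and lost its call without Wistar N 2, 3 or 4 or WAR N 1, 3 or 4 (up to 0.083). *Acsbg1* was lower by −0.62 (SE 0.13, adjusted p = 0.0046), kept its call whichever array was left out, and was at −0.56 after sound without passing. *Acadm*, of medium-chain oxidation, was lower (−0.77), a call lost without any 1 array other than Wistar N 1 and WAR N 2 (up to 0.142). *Slc27a4*, the closest relative of *Slc27a1*, was at 0.02 in both parts and did not pass.

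**Figure D5:**
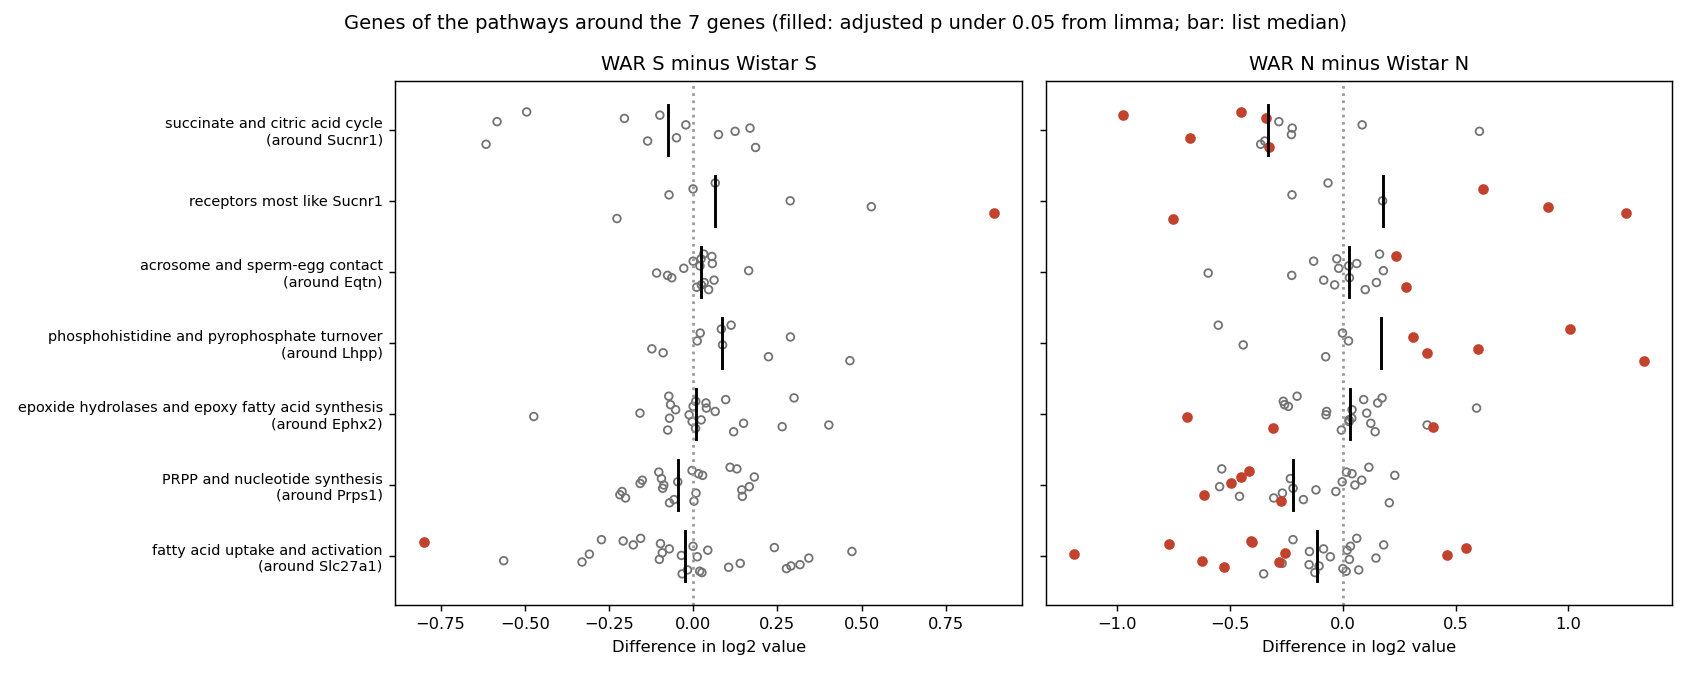
Difference in log2 value, WAR minus Wistar (horizontal axis, a different range in each panel), of the 118 genes in 7 of the pathway lists, in stimulated (left) and naïve (right) rats, with filled points for a limma adjusted p under 0.05 and bars at the list medians. After sound 2 points are filled, and in naïve rats 34, of which 21 lie below 0.

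Markers of several cell types also differed between the strains. In bulk tissue, fewer cells of a type and less RNA per cell cannot be told apart. By limma, 20.9% of all genes passed in naïve rats (9.38% lower and 11.6% higher in WAR), and 0.414% after sound. Of 16 astrocyte markers, 0 passed after sound and 8 were lower in naïve WAR, among them *Slc6a11* (−0.79) and *Aldh1l1* (−0.76, limma adjusted p = 0.0040). Their mean ran from 10.90 to 11.10 in WAR S and from 11.32 to 11.36 in Wistar S, and from 10.69 to 10.88 in WAR N and from 11.08 to 11.26 in Wistar N, so these groups did not overlap. The median astrocyte difference was −0.25 after sound and −0.43 in naïve rats. Of 19 endothelial markers, 9 were higher in naïve WAR (*Adgrf5* by 1.62) and 3 after sound (*Adgrf5*, *Tek* and *Abcb1a*). Each of the 3 lost its call without Wistar S 1 or without Wistar S 2, with an adjusted p up to 0.375, 0.491 and 0.283. The endothelial mean overlapped in naïve rats, from 7.83 to 8.28 in WAR N and from 7.13 to 8.08 in Wistar N. After sound it did not overlap, from 7.88 to 8.30 in WAR S and from 7.34 to 7.36 in Wistar S. Of 15 microglia markers, 1 was higher after sound and 6 in naïve WAR (*Tyrobp* by 1.85). Their mean did not overlap between the strains in either part, and was higher in WAR. It ran from 8.31 to 8.58 in WAR S and from 8.11 to 8.17 in Wistar S. In naïve rats it ran from 8.22 to 8.32 in WAR N and from 7.75 to 7.90 in Wistar N. Of 10 markers of IC neurons, 0 passed after sound and 5 were lower in naïve WAR (*Slc32a1* by −1.14, *Nos1* by −0.92). The mean of these markers overlapped between the strains after sound and did not overlap in naïve rats. Of 6 red blood cell markers, *Hbb* alone passed, lower in both parts (−1.17 and −0.67), while the list median was −0.31 after sound and −0.09 in naïve rats. Without Wistar S 1 or Wistar S 2 the stimulated call of *Hbb* was lost (limma adjusted p up to 0.545). Among 12 oligodendrocyte, 15 neuron and 10 choroid plexus and ependymal markers 0 passed after sound, and in naïve rats 1, 1 and 1 were higher and 2, 5 and 0 lower. The part of these cell types in the values of the 7 genes was not tested.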

How the data were processed

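The values deposited by the authors are on the log2 scale, from RMA (background correction, quantile normalization and a summary per probe set). Its version and the genome build are not given in the sources used here. Every probe set had a value in each array, and 0 sample columns were set aside. Of 29214 probe sets, 15310 had 1 symbol in the platform annotation, 323 had several and 13581 had none. Of the 15310, 15279 matched the RefSeq gene table of GRCr8 by gene ID, with 0 symbols updated. For 527 genes with several probe sets the brightest over all arrays was kept, which left 14506 genes. The 7 genes and the lists around them were chosen with earlier results of these data known.

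WAR S was compared with Wistar S and WAR N with Wistar N in limma 3.58.1 under R 4.3.3 (lmFit, eBayes). The model held the 4 group means of the 15 arrays, and p-values were adjusted over 14506 genes by Benjamini-Hochberg, with calls at 0.05. Both comparisons share an estimate of the spread, so naïve standard errors and adjusted p also rest on the stimulated arrays with their many identical values. With the 2 compared groups alone in the model, 274 genes were called after sound (against 60) and 879 in naïve rats (against 3037). The part of the identical values in this was not tested. The step was tested on simulated data. No p is given for the 7 genes, since both comparisons were used to choose them. Arrays are 1 per animal by the labels, and their number limits the precision. SAM, the test of the study, splits the samples and was not run, and its thresholds were tried with limma.

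Genes named beside the 7 were up to 4 of each pathway list with the largest differences past the threshold, chosen relatives whatever their values, every called chromosomal neighbor and the adjacent ones, the 2 genes most like each member, and up to 2 of each marker list. The called genes *Nme3* and *Fabp5* were named in addition. Of the 8 pathway lists, 1 enters the totals only and is not reported here by itself. Gene order came from GRCr8, and no promoter of *Ephx2* was used here. Alternatives were the compared groups alone in the model, the replicate number or the label set as a block, 1 label set, the dimmest genes left out, array weights, eBayes with trend and robust, all probe sets, cyclic loess, the thresholds of the study, and each array left out in turn. Non-overlap of the 7 genes and the adjusted p of named genes without each array were added after seeing the data.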

Additional observations from a re-analysis of the deposited data

Results flagged for a closer look

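*Lhpp* had 1 array far from the others of its group, Wistar N 1 with a log2 value of 9.55 beside 8.99 to 9.02 in the other 3 Wistar N arrays. Among the genes next to the 7, *Jun* was at 8.61 in WAR S 4 beside 8.79 to 8.83 in the other WAR S arrays. In WAR S 2, *Aadac* was at 4.24, *Adam2* at 4.87 and *Chrna2* at 6.83, while the other 4 WAR S arrays shared 1 identical value for each of these genes (4.18, 4.84 and 6.72), so that any departure stands out. Over the 63 groups of arrays examined in this way, chance marks about 1 in 20.

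The strain difference of *Ppa1*, of the pathway list around *Lhpp*, was −0.089 in stimulated and 0.37 in naïve rats, with every WAR S array below both Wistar S arrays and every WAR N array above every Wistar N array (interaction adjusted p from limma = 0.169). *Rarres2*, of the choroid plexus markers, was likewise at −0.28 and 0.56 (interaction adjusted p from limma = 0.0854). Neither difference between the parts passed the threshold.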

How the results depend on the processing

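All 280 values of the 7 genes under the alternatives were below 0, and 278 moved by less than the spread between replicates. The other 2 were naïve differences in label set 1 only, −1.32 for *Sucnr1* and −1.53 for *Ephx2*. Many of the 280 could not move. Leaving out a naïve array does not change a stimulated difference, nor the reverse, and the replicate and label set blocks left the naïve differences as they were. The genes were chosen as lower in WAR, so the shared sign is no test. Counts shifted with the processing. Genes called were 60 after sound, 3037 in naïve rats and 17 lower in both, pathway genes called 2 and 41, neighbors called 2 and 18, and 199 genes lower without overlap in both parts. With the 2 compared groups alone in the model, 274, 879, 9 naïve pathway genes and 9 naïve neighbors were called. With the label set as a block 31 genes were lower in both parts. Label set 1 gave 14 and 217 genes, 5 in both, 1 and 3 pathway genes, 1 and 4 neighbors, and 496 genes without overlap. Array weights gave 1433 and 4667 genes, 183 in both, and after sound 23 pathway genes and 14 neighbors. A fold change of at least 2 with an unadjusted p of at most 0.05 gave 39 and 256 genes, 3 in both, 0 and 4 pathway genes, and 1 and 2 neighbors. Leaving out 1 array gave 7 to 261 genes after sound, 1987 to 5968 in naïve rats, 4 to 52 in both, 1 to 6 and 26 to 78 pathway genes, 1 to 4 and 11 to 30 neighbors, and 204 to 359 genes without overlap. Without Wistar N 1 the counts were the highest (261, 5968 and 52), without Wistar S 2 the fewest genes were called after sound (7, and 13 without Wistar S 1), and without Wistar N 3 the fewest in naïve rats (1987). WAR S 1 also moved the count after sound, to 38. The cause of these shifts was not tested.

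With the replicate block, 16 genes were called after sound, 6 were lower in both parts, and 1 pathway gene and 1 neighbor were called after sound. Arrays of the same number did not deviate together (r from −0.31 to 0.06 over 4 naïve pairs and from −0.05 to 0.03 over 2 stimulated pairs), so the numbers were not taken to pair the samples. The 2 Wistar S arrays, the 1 probe set per gene and the separate normalization limit what the values of the 7 genes can show.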
